A study of Mus musculus with 40 samples.

Results

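Collagen chain genes, the genes whose symbol is Col, a number, the letter a and a number, were followed in trabecular and cortical bone of ovariectomized mice given estradiol or vehicle. The BeadChip carried 36 such symbols on 58 probes. A symbol was kept where its probe had a detection p, the chance of such a signal on a probe that meets no target, under 0.01 on at least 5 of the 40 arrays, with the brightest probe standing for the gene. That left 22 collagen chain genes among 9451 genes tested between the bones, and 12 of the 22 were detected on all 40 arrays. Of the 14 symbols not kept, 9 were detected on 0 arrays. Just inside the threshold lay Col5a3, detected on 5 arrays, Col11a1, on 6, and Col23a1, on 8, while just outside it Col8a2 was detected on 4 arrays, Col11a2 and Col14a1 on 3 each and Col25a1 on 2.

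RNA came from female C57BL/6 mice aged 15 weeks, all ovariectomized, which 1 week later received either a subcutaneous injection of estradiol (E2, 115 µg per kg of body weight) or the olive oil vehicle and were killed 18 h after it. Mice were either Era-AF1 KO, lacking activation function 1 of the estrogen receptor alpha (the part of the receptor that can activate transcription without ligand), or wild type (WT). Trabecular samples were vertebral bodies L5 and L6, and cortical samples were flushed shafts of long bones, femora and tibiae in the protocol and femur in the sample labels. The 8 groups were KO E2, KO vehicle, WT E2 and WT vehicle in trabecular bone and the same in cortical bone, with 5 arrays each. Each of the 5 replicate numbers stands for 1 BeadChip that held 1 array of every group. Neither separate animals within a group nor shared animals between the bones are stated, so the spread behind every p-value is that of the samples as labelled and may be technical in part.

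Collagens are the main structural proteins of the extracellular matrix, built from chains wound around each other into a long helix. Type I collagen, made of the Col1a1 and Col1a2 chains, forms most of the organic matrix of bone, with types III, V and XXIV as lesser fibril-forming partners. Cartilage is built on type II fibrils with types IX and XI, and hypertrophic chondrocytes, which prepare cartilage for replacement by bone, make type X. Type IV is the network of basement membranes, which line vessels, muscle fibres and nerves, and type VI forms fine beaded filaments around cells.

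Collagen chain genes were read beside their promoters, of which RefSeq (build GRCm38.p6) gave windows of 250 bases before and 50 after the start site for 18 of the 22 genes. The following 5 are shown because they belong to the head-to-head type IV pair, to both genes that were higher in trabecular bone, to the gene with the lowest trabecular minus cortical difference, and to a type I chain. The Col4a1 window (chr8:11312777-11313076, minus strand) overlaps the Col4a2 window on the other strand (chr8:11312555-11312854), and capitals mark the 78 bases they share. The 2 start sites, at 11312826 for Col4a1 and 11312805 for Col4a2, lie 21 bases apart.
Col4a1: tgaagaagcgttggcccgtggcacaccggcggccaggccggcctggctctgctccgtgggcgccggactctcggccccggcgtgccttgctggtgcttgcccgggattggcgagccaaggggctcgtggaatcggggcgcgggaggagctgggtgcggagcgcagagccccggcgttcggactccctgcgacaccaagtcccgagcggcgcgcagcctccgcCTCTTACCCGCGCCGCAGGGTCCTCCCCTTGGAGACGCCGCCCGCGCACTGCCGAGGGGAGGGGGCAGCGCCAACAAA
In the other 4 windows capitals mark the letters TATAAA, the core of a TATA box, or CCAAT, on either strand. They are those of Col9a2 (chr4:121039316-121039615, plus strand), Col10a1 (chr10:34389731-34390030, plus strand), Col3a1 (chr1:45311288-45311587, plus strand) and Col1a2 (chr6:4505368-4505667, plus strand).
Col9a2: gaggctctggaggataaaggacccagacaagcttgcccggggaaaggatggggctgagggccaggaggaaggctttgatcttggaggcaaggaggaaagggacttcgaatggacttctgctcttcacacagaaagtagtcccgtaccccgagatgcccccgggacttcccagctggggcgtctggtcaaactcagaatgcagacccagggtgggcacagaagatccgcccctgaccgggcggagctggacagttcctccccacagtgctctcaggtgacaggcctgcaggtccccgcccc
Col10a1: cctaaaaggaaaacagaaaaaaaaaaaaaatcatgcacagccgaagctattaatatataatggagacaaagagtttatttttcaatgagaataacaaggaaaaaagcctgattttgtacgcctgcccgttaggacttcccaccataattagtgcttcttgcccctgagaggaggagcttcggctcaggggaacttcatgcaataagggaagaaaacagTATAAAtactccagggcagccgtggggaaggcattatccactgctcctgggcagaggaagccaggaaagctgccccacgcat
Col3a1: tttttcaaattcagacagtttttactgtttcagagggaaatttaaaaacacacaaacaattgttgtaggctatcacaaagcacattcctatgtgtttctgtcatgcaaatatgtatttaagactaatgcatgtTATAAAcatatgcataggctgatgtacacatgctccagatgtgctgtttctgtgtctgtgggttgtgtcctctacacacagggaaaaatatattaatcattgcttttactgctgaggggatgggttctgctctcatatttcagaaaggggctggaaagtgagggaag
Col1a2: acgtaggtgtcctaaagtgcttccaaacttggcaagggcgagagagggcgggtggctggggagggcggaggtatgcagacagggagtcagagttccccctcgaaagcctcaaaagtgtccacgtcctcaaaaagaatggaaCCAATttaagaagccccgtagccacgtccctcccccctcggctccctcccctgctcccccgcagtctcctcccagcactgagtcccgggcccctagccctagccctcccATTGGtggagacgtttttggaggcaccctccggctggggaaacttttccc
TATAAA began 32 bases before the start site in Col10a1 and 117 bases before it in Col3a1, and these were the 2 collagen genes of 18 with that match on either strand, against 13.6% of all 32851 windows. CCAAT was present in 8 of the 18 and in 37.4% of all windows. The full estrogen response element GGTCANNNTGACC was in 0 of the 18 and in 0.07% of all windows. Its half-site AGGTCA was in 4 of the 18 and 16.3% of all windows, both strands searched. Collagens were counted by gene, with a match in any window of the gene counted once, and the 18 genes had 20 windows. The percentages count windows, each once. The GC box GGGCGG was in 13 of the 18 and in 35.7% of all windows. A match of letters does not show that a factor binds there.

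Trabecular arrays of BeadChip 1 had fewer detected probes, 8052 to 9218, than the other 16 trabecular arrays, with 10357 to 11203. Cortical arrays had 9880 to 11435 on BeadChip 1 and 10324 to 11691 on the others. Of the 2 probes named for Esr1, the gene altered in KO mice, 1 was detected on 17 arrays of trabecular and 20 of cortical bone, the other on none. The sources used here do not give where these probes lie relative to the deleted part, so they do not check the genotype labels. 3 arrays stood apart in connective tissue or cartilage genes and are named below where they bear on a value.

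Between the bones, 17 of the 22 collagen genes were lower in trabecular than in cortical bone and 2 were higher, while 3 did not pass the test. Type III, type V alpha 2 and type XXIV chains, both type IV chains, both type VI chains and the fibril-associated types XII and XVI were among those that fell, and the cartilage chains Col9a2 and Col10a1 rose. The test was limma on log2 intensities, averaged over the 4 genotype and treatment groups, with Benjamini-Hochberg adjustment over 9451 genes and a call at adjusted p under 0.05. By that rule 55.7% of all genes tested were called, 31% higher and 24.7% lower in trabecular bone. The median log2 difference, trabecular minus cortical, was -0.96 over the collagen genes and 0.07 over all genes, and it was above 0 in 5 of the 22 and in 57% of all genes. Some of the 22 passed the detection filter through cortical arrays alone. Col10a1, detected on 14 trabecular and 2 cortical arrays, passed it only with its trabecular arrays, the side where it was higher. Of the 12 detected on every array, 11 were called lower, and the other was Col2a1. The share called lower among all genes detected on every array is not given here, so the 11 have no background beside them.

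**Figure D1:**
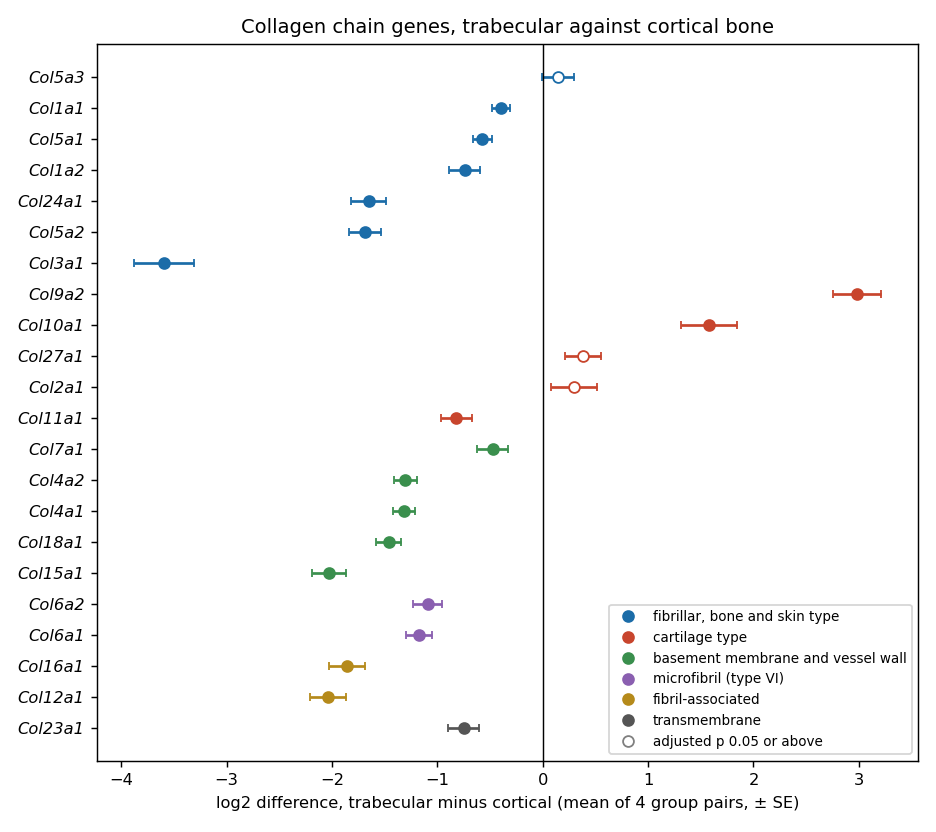
Log2 difference of the 22 collagen chain genes, trabecular minus cortical bone, averaged over the 4 genotype and treatment groups of 5 arrays per bone, with the standard error from limma, ordered within collagen classes. Filled points passed adjusted p under 0.05, 17 below 0 and 2 above it. Col11a1 and Col23a1 were detected on no trabecular array, so their points do not measure a fold.

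Bulk RNA cannot tell fewer cells of a type from less RNA per cell, and that holds for every value here. Genes of several other cell types moved with the collagens between the bones, and those of others did not. All 20 of the skeletal muscle genes tested (such as Acta1 and Ckm) were called lower in trabecular bone, with a median log2 difference of -2.41, and the list's summed intensity was 36155 to 134976 on trabecular arrays against 115200 to 423704 on cortical arrays. Of 12 tendon, periosteum and fibroblast genes tested, 11 were lower and 1 higher, and their summed intensity was 11291 to 27031 on trabecular arrays against 19538 to 44953 on cortical arrays. Scx, Mkx, Dpt, Cilp2 and Mfap5 of that list passed the detection filter only with their cortical arrays. Their calls are in part set by the filter. Osteoblast genes fell in 10 of 13 cases and rose in 0, with a summed intensity of 90170 to 129018 on trabecular and 130194 to 158907 on cortical arrays. Of 5 osteocyte genes tested, all were lower, and of 11 endothelial genes 9 were lower and 1 higher. Erythroid genes went the other way, with 7 of 10 higher and 0 lower. Sost and Dmp1 (osteocyte), Casq1 (muscle) and Smpd3 (osteoblast) also passed the detection filter only with their cortical arrays. Rhd (erythroid) passed it only with its trabecular arrays, and the same limit holds for calls of these genes. The summed intensity of adipocyte genes was 3577 to 7876 on trabecular and 7932 to 21347 on cortical arrays. Osteoclast genes overlapped, with 32205 to 49230 on trabecular and 30182 to 53137 on cortical arrays. Neutrophil genes also overlapped, with 204741 to 265166 on trabecular and 168910 to 244942 on cortical arrays. The part these cell types have in the collagen differences was not tested.

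The fibril-forming collagens of bone and skin fell in 6 of 7 cases, with a median log2 difference of -0.74. Col1a1, the alpha 1 chain of type I collagen, had a log2 intensity of 13.47 at the lowest, 14.13 at the median and 14.68 at the highest on the 20 trabecular arrays, against 13.85, 14.45 and 14.99 on the 20 cortical arrays. The ranges overlapped over most of their width, and the trabecular array was the lower one in 17 of 20 pairs from the same BeadChip and group. Col1a1 was 1.31-fold lower in trabecular bone (log2 difference -0.39, SE 0.09, adjusted p = 0.000245 by limma). Its partner Col1a2 had 11.71, 12.72 and 13.45 on trabecular arrays against 11.96, 13.50 and 14.46 on cortical arrays, and was 1.67-fold lower (adjusted p = 8.55e-05 by limma). It was lower in trabecular bone in 16 of 20 pairs.

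Col3a1, the chain of type III collagen, which is abundant in vessel walls, skin and loose connective tissue, differed by more than any other collagen gene. Its trabecular intensities were 5.46 at the lowest, 6.54 at the median and 7.70 at the highest, and 8 of 20 arrays detected it. On cortical arrays they were 6.81, 10.23 and 11.77, and all 20 detected it. The ranges met through 1 cortical array, WT E2 on BeadChip 4, at 6.81, while the next lowest cortical array stood at 8.55. Col3a1 was 12.0-fold lower in trabecular bone (log2 difference -3.59, SE 0.28, adjusted p = 7.95e-13 by limma). In WT vehicle mice none of the 5 trabecular arrays detected it, and there it was at least 11.9-fold lower, the bound being each array's lowest signal among detected probes or the probe's own signal where that is higher. The same cortical array was low in Chad, a cartilage and bone matrix protein, at 7.18 against 9.30 to 11.20 on the other WT E2 cortical arrays. Without it the log2 difference of Col3a1 was -3.80, and 19 collagen genes were called. That array was picked after its low values were seen. With no background correction the value over all arrays was -2.30. A second Col3a1 probe was detected on 0 trabecular and 4 cortical arrays, below the detection filter, so no difference is given for it.

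Neighbouring Col3a1 on chromosome 1 is Col5a2, a type V chain that joins type I and III fibrils and limits their width. It had 5.27, 6.66 and 7.48 on trabecular arrays against 7.44, 8.19 and 8.85 on cortical arrays, a 3.23-fold difference (log2 difference -1.69, adjusted p = 1.45e-11 by limma). The highest trabecular array, at 7.48, lay just above the lowest cortical one, at 7.44, and trabecular bone was lower in 20 of 20 pairs. With no background correction the log2 difference was -0.84. The other main type V chain, Col5a1, differed less, by a log2 difference of -0.57 (SE 0.09), with 11.34 to 12.64 on trabecular and 12.11 to 13.09 on cortical arrays. Col5a3, a minor type V chain, was near the detection limit in both bones, on 2 trabecular and 3 cortical arrays, and did not pass the test (log2 difference 0.14, SE 0.15, adjusted p = 0.444 by limma). Col24a1, a fibrillar chain expressed in bone, was 3.14-fold lower, with 7.51, 8.85 and 9.51 on trabecular arrays against 9.48, 10.44 and 11.39 on cortical arrays. Its second probe gave a log2 difference of -1.50 beside -1.65 for the brighter one.

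Among the fibril-associated and basement membrane chains, 3 genes had no overlap between the bones. Col12a1, which coats type I fibrils in tendon, ligament and periosteum, had 8.15, 8.68 and 9.18 on trabecular arrays against 9.23, 10.79 and 11.77 on cortical arrays. Col15a1, of the zone just outside basement membranes, had 5.52, 7.12 and 7.83 against 8.19, 9.08 and 9.85, and Col18a1, a basement membrane chain from which endostatin is cut, had 8.07, 8.55 and 9.05 against 9.27, 9.93 and 10.82, trabecular before cortical. In these 3 genes every trabecular array lay below every cortical array, as it did in 1.43% of all genes tested. The folds were 4.10 for Col12a1, 4.07 for Col15a1 and 2.76 for Col18a1, all lower in trabecular bone. With no background correction the log2 difference of Col15a1 was -1.21, against -2.02 with it. Genes whose trabecular arrays all lay above the cortical ones made up 0.0423% of those tested and held 0 collagens. Col16a1, another fibril-associated chain, was 3.63-fold lower with 8.74 to 10.42 on trabecular and 9.82 to 12.48 on cortical arrays.

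**Figure D2:**
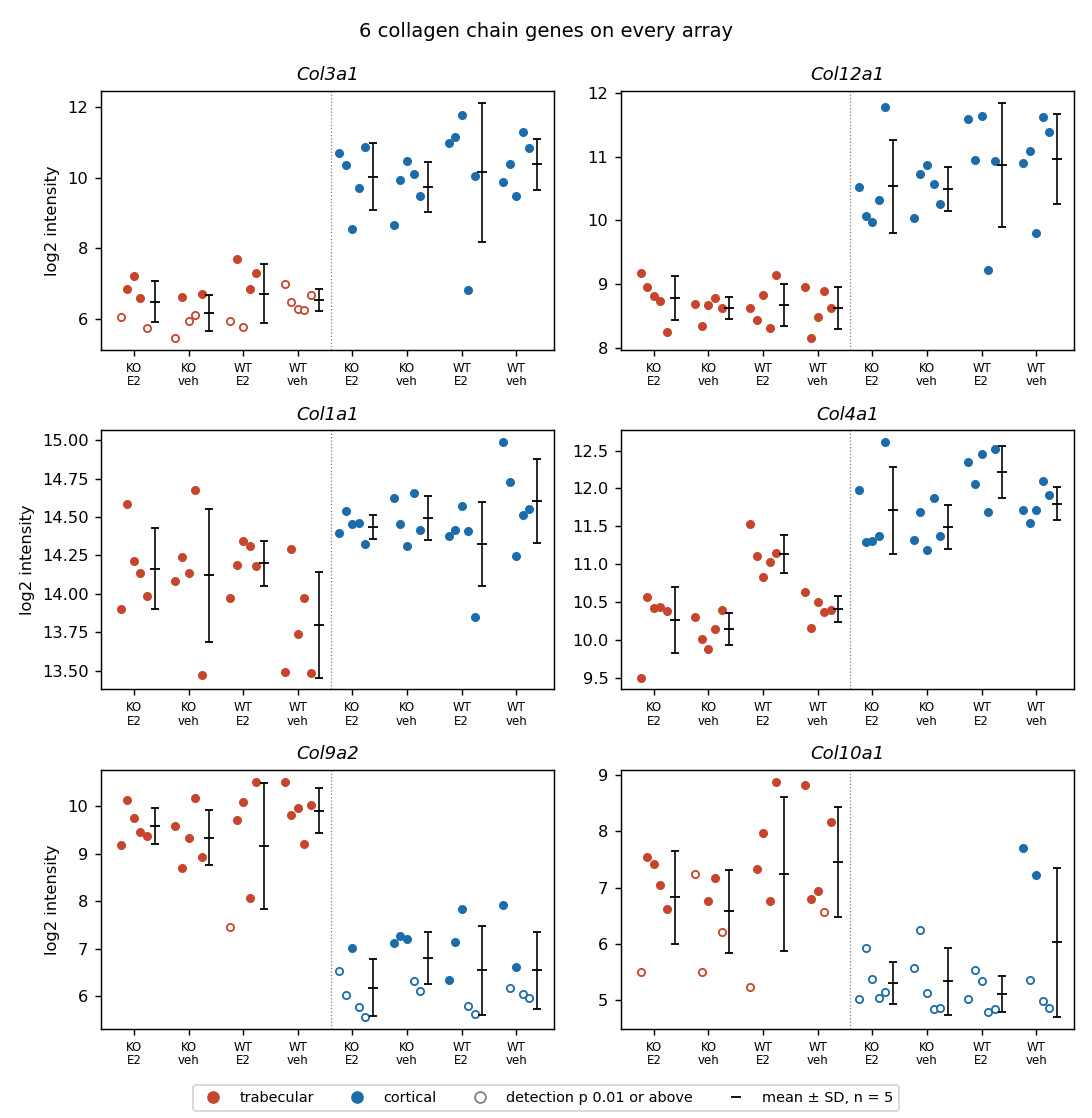
Log2 intensity of 6 collagen chain genes on each of the 40 arrays, with trabecular groups left of cortical groups, 1 point per array in the order of BeadChips 1 to 5 within a group, and the group mean and SD beside the points (n = 5). Col12a1 points of trabecular arrays end at 9.18, below the lowest cortical point at 9.23, and Col3a1 overlaps through 1 cortical WT E2 array at 6.81.

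Col4a1 and Col4a2, which share the promoter region printed above and are assembled together into the type IV network, differed almost equally. Col4a1 had 9.50, 10.41 and 11.53 on trabecular arrays against 11.19, 11.71 and 12.61 on cortical arrays, with a log2 difference of -1.32 (SE 0.11). For Col4a2 the values were 9.07, 9.54 and 10.37 on trabecular against 10.26, 10.83 and 11.85 on cortical arrays, with a log2 difference of -1.30 (SE 0.11). Both were lower in 20 of 20 pairs, and their averages over the 4 groups lay between -1.53 and -1.19 for Col4a1 and between -1.57 and -1.03 for Col4a2 across the 5 BeadChips. The type VI chains Col6a1 and Col6a2, neighbours on chromosome 10, had log2 differences of -1.17 (SE 0.12) and -1.09 (SE 0.14), and both were lower in 20 of 20 pairs. The second probe of Col6a1 gave -1.34.

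Col7a1, which forms the fibrils that anchor epithelial basement membranes, passed detection on 6 trabecular and 15 cortical arrays and had a log2 difference of -0.47 (SE 0.15, adjusted p = 0.00622 by limma). Without BeadChip 1 its difference was -0.27 with an adjusted p of 0.125, and it was then no longer called. With no background correction it was -0.19. Col23a1, a transmembrane collagen, was detected on 0 trabecular and 8 cortical arrays. It passed the test (adjusted p = 6.27e-05 by limma), but its signals gave no bound above 1, so no fold is stated. Over the 5 BeadChips taken singly, 16 of the 22 genes averaged below 0 on every BeadChip and 2 above 0 on every BeadChip. The share of all genes with 1 sign on every BeadChip is not given here, so these counts do not set the collagens apart.

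Of the 5 cartilage-type collagens kept, Col9a2 and Col10a1 rose, Col2a1 and Col27a1 did not pass the test, and Col11a1, which passed the detection filter through cortical arrays alone, was called lower. Col9a2, a chain of type IX collagen, which decorates type II fibrils, had 7.45, 9.64 and 10.51 on trabecular arrays against 5.55, 6.32 and 7.92 on cortical arrays. Detection succeeded on 19 trabecular and 9 cortical arrays, and the overlap came from 1 trabecular array, WT E2 on BeadChip 1, at 7.45, where the probe was not detected. Trabecular bone was higher in 20 of 20 pairs and the difference was 7.90-fold (log2 difference 2.98, SE 0.23, adjusted p = 4.14e-13 by limma). Col10a1, the chain of type X collagen, had 5.25, 6.99 and 8.88 on trabecular arrays against 4.80, 5.14 and 7.70 on cortical arrays, with detection on 14 trabecular and 2 cortical arrays. Its log2 difference was 1.58 (SE 0.27, adjusted p = 5.67e-06 by limma), taken against cortical signals of which 18 of 20 were not above background, and it was higher in 18 of 20 pairs. In KO E2 mice no cortical array detected Col10a1, and trabecular bone was at least 1.26-fold higher there. The same held in WT E2 mice, with at least 1.73-fold, while in KO vehicle mice, also without a cortical detection, no bound above 1 was reached. With no background correction the log2 differences were 1.77 for Col9a2 and 0.67 for Col10a1.

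Col11a1, a chain of type XI collagen that is also made outside cartilage, was detected on 0 trabecular and 6 cortical arrays. It passed the test on the lower side (adjusted p = 1.38e-05 by limma), but with no trabecular array above detection no fold is stated. Col27a1, a fibrillar chain of developing cartilage, was detected on 9 arrays of each bone and did not pass (log2 difference 0.38, SE 0.17, adjusted p = 0.0596 by limma).

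Col2a1, the chain of type II collagen and the main fibril of cartilage, was detected on all 40 arrays, flushed shafts included. Its log2 intensity was 8.68 at the lowest, 11.88 at the median and 12.89 at the highest on trabecular arrays, against 10.32, 11.40 and 12.00 on cortical arrays. The cortical arrays lay wholly inside the trabecular range. The difference did not pass the test (log2 difference 0.30, SE 0.22, adjusted p = 0.25 by limma), although trabecular bone was higher in 15 of 20 pairs. A second Col2a1 probe, also detected on all 40 arrays, gave 0.18.

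Other cartilage genes differed among themselves. Acan, the large aggregating proteoglycan of cartilage, was detected on 18 trabecular arrays and 1 cortical array, Cytl1, a secreted cartilage protein, on 19 and 0, Hapln1, which links aggrecan to hyaluronan, on 15 and 0, and Ucma, a protein of cartilage matrix, on 5 and 0. Sox9, the transcription factor of chondrocytes, was detected on 6 trabecular and 2 cortical arrays. Chad was detected on all 20 arrays of each bone and Comp on 18 trabecular and 20 cortical arrays. Matn4, a matrilin, went the opposite way, with 6 trabecular and 18 cortical arrays. These are the 8 cartilage genes other than collagens that were tested, and 6 of them were called higher and 1, Matn4, lower in trabecular bone. Cytl1, Hapln1 and Ucma passed the detection filter through trabecular arrays alone, so their calls are in part set by the filter. Acan, with 1 cortical array, and Sox9, with 2, also passed it only with their trabecular arrays, and the same limit holds for them. Cytl1 was at least 10.1-fold and Hapln1 at least 1.42-fold higher in trabecular bone, and Ucma reached no bound above 1. Among those detected in both bones, the log2 difference was 2.73 for Acan, with 1 cortical detection, 2.01 for Chad, 0.62 for Sox9, 0.13 for Comp, which was not called, and -1.65 for Matn4. The list's summed intensity was 1274 to 12522 on trabecular against 515 to 4316 on cortical arrays. What part cartilage has in the Col9a2 and Col10a1 differences was not tested.

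2 trabecular WT E2 arrays, those of BeadChips 1 and 4, were low in cartilage genes. Col2a1 stood at 8.68 and 10.53 there against 11.89 to 12.50 on the other 3, and Acan at 5.76 and 5.48, both not detected, against 8.53 to 9.26. Without both arrays, 21 collagen genes were called between the bones, 4 higher and 17 lower, since Col2a1 (log2 difference 0.55, adjusted p = 0.00327 by limma) and Col27a1 (0.51, adjusted p = 0.00974 by limma) then passed the test. The log2 differences without them were 3.22 for Col9a2 and 1.78 for Col10a1. Both arrays were picked after their low cartilage values, Col2a1 included, were seen, here and wherever they are left out below. Leaving out low trabecular arrays raises the trabecular mean of such genes by construction. The calls of Col2a1 and Col27a1 gained this way are therefore no support for a difference. The share of all genes called without these arrays is not given here.

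**Figure D3:**
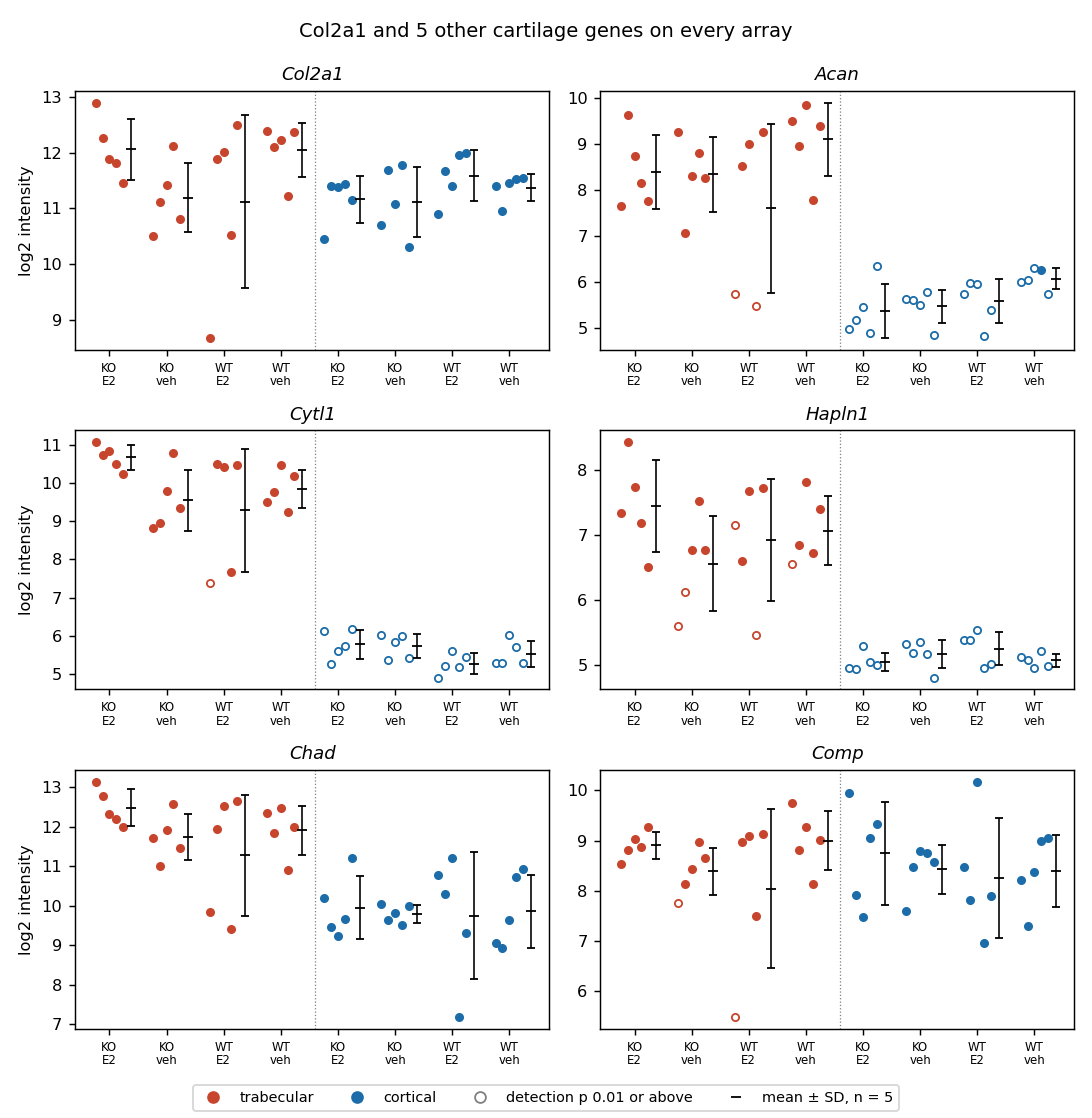
Log2 intensity of Col2a1 and of 5 cartilage genes that are not collagens on each of the 40 arrays, trabecular groups left and cortical groups right, 1 point per array in the order of BeadChips 1 to 5 within a group, with the group mean and SD (n = 5). Col2a1 points are filled, that is detected, on all 40 arrays, whereas the Cytl1 and Hapln1 points of all 20 cortical arrays are open.

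The site difference was seen in each of the 4 groups taken alone. In KO E2 mice 14 of the 22 collagen genes were called, 2 higher and 12 lower, against 22.9% of all genes, 11% higher and 12% lower. KO vehicle mice gave 13, 1 higher and 12 lower, against 22.3%, 9.5% higher and 12.7% lower. In WT E2 mice the count was 16, 2 higher and 14 lower, against 19.4%, 7.99% higher and 11.4% lower. WT vehicle mice also gave 16, 1 higher and 15 lower, against 20.6%, 9.01% higher and 11.6% lower. Col9a2 was called in all 4, with log2 differences of 3.40 in KO E2, 2.54 in KO vehicle, 2.62 in WT E2 and 3.37 in WT vehicle mice. Col3a1 was called in all 4 as well, with -3.53 in KO E2, -3.56 in KO vehicle and -3.43 in WT E2 mice. Col1a1 was called in WT vehicle mice alone, at -0.81 (adjusted p = 0.00095 by limma, and 0.178 with median scaling), and had -0.27 in KO E2, -0.37 in KO vehicle and -0.13 in WT E2 mice.

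Genes that make, finish or bind collagen fibrils also differed between the bones, mostly on the lower side in trabecular bone. The shares called are to be read against 55.7% of all genes tested, 24.7% lower and 31% higher. Of 20 tested genes of collagen synthesis and export, 11 were lower and 2 higher, a called share near that of all genes. Among the lower ones, Plod2, which hydroxylates telopeptide lysines, had a log2 difference of -1.22, P3h4, a partner of the lysyl hydroxylases, -1.17, P4ha1, a subunit of the prolyl hydroxylase that stabilises the helix, -0.98, and Fkbp10, a collagen chaperone, -0.80. The 2 higher ones, named after their values were seen, were Colgalt2, at 0.94, and Plod3, at 0.19. Of 7 genes of procollagen processing and crosslinking 6 were lower, among them the N-propeptidase Adamts2 at -0.95, the lysyl oxidases Lox at -0.88 and Loxl1 at -0.83, and the C-propeptidase Bmp1 at -0.59. Pcolce2, an enhancer of that cleavage also named after its value was seen, was higher at 0.90.

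All 8 fibril-binding genes tested were lower, among them Thbs2 at -2.47, Tnxb at -2.55, Fmod at -2.53 and Dcn at -0.96 on the log2 scale. Of 7 collagen receptor genes, 6 were lower, with the integrin chain Itga11 at -1.43 and the tyrosine kinase receptor Ddr2 at -1.11. Of 10 genes of collagen breakdown, 5 were lower, among them the protease genes Mmp2 at -1.61 and Mmp14 at -1.13 and the inhibitor gene Timp2 at -1.36, and 1 was higher, the neutrophil collagenase Mmp8 at 0.82, again a called share near that of all genes.

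E2 raised or lowered no collagen gene past the threshold in any of the 4 settings. In KO trabecular bone 0 of 19 collagen genes were called by limma, against 0.0115% of all genes, and 3 had an unadjusted p under 0.05, against 4.18%. The log2 difference, E2 minus vehicle, was above 0 in 16 of 19, against 49.1%, with a median of 0.16. The 3 with the smallest p were Col6a2 at 0.59 (SE 0.22), Col6a1 at 0.63 (SE 0.24) and Col16a1 at 0.53 (SE 0.23), each with an adjusted p of 0.965. Col6a2 had 9.21, 9.07, 8.74, 8.29 and 8.70 on KO E2 arrays, against 8.07, 7.90, 8.34, 8.52 and 8.25 on KO vehicle arrays, with the E2 array higher on 4 of 5 BeadChips. Cartilage genes other than collagens had 8 of 8 above 0 there, with a median of 0.70, and Col2a1 had a value of 0.86 (SE 0.52). Muscle genes had 18 of 19 above 0 with a median of 0.48, the 3 adipocyte genes tested all lay above 0 with a median of 0.49, and osteoblast genes had 6 of 12. The part of these cell types in the KO collagen values was not tested.

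In WT trabecular bone 0 of 19 tested collagen genes were called by limma, against 0.207% of 8690 genes tested, and 7 of the 19 had an unadjusted p under 0.05, against 6.78% of all genes. The log2 difference was above 0 in 15 of the 19 and in 48.7% of all genes, with a median of 0.38 over the collagens and -0.01 over all genes. All 15 collagens outside the cartilage class had a positive value and all 4 cartilage chains tested a negative one. Leaving out each BeadChip in turn, the positive count lay between 12 of 19 and 17 of 19, and without the 2 trabecular WT E2 arrays low in cartilage genes it was 18 of 19.

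Col6a2, a type VI chain, had the smallest p in WT trabecular bone. Its log2 intensities were 9.45, 9.60, 9.29, 9.40 and 10.13 on the E2 arrays of BeadChips 1 to 5, against 8.12, 8.67, 9.05, 8.27 and 9.04 on the vehicle arrays. All E2 arrays lay above all vehicle arrays, but the difference of 0.95 (SE 0.22) did not pass the adjustment (adjusted p = 0.0867 by limma). It passed with no background correction, where the adjusted p was 0.0367, and over the alternatives tried the adjusted p lay between 0.0367 and 1.

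Col4a1 had 11.53, 11.11, 10.84, 11.03 and 11.14 on WT E2 trabecular arrays, against 10.64, 10.16, 10.49, 10.37 and 10.39 on WT vehicle arrays. The groups did not overlap, and the difference was 0.72 (SE 0.18, adjusted p = 0.175 by limma). Without BeadChip 1 it was 0.68 with an adjusted p of 0.0151, and with array quality weights the adjusted p was 0.00697. Over the alternatives tried it lay between 0.00697 and 1. Col4a2 had 9.88, 10.37, 9.70, 10.02 and 10.35 on WT E2 arrays, against 9.55, 9.42, 9.31, 9.45 and 9.63 on WT vehicle arrays. These groups did not overlap either, and the difference was 0.59 (SE 0.16, adjusted p = 0.232 by limma). The 3 genes were the only collagens whose E2 arrays all lay above the vehicle arrays, a pattern of 1% of all genes tested in that setting.

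Among the bone matrix chains, Col1a1 had 13.97, 14.19, 14.34, 14.31 and 14.18 on WT E2 trabecular arrays, against 13.49, 14.29, 13.74, 13.97 and 13.49 on WT vehicle arrays. The E2 array was the higher on 4 of 5 BeadChips, and the difference of 0.40 (SE 0.20) had an adjusted p of 0.748 by limma. Col1a2 had 13.45, 13.10, 12.33, 13.21 and 13.08 on E2 arrays against 12.63, 12.59, 11.71, 12.68 and 12.65 on vehicle arrays, higher on 5 of 5 BeadChips, with a difference of 0.58 (SE 0.21, adjusted p = 0.641 by limma). Both sets of arrays overlapped.

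Col2a1 had 8.68, 11.89, 12.01, 10.53 and 12.50 on WT E2 trabecular arrays, against 12.38, 12.09, 12.22, 11.22 and 12.36 on WT vehicle arrays. Its mean difference of -0.93 (SE 0.52, adjusted p = 0.779 by limma) held a value of -3.70 on BeadChip 1, while those on the other BeadChips lay between -0.69 and 0.14. Col9a2, at -0.74, likewise held -3.06 on BeadChip 1 and -1.14 on BeadChip 4, against -0.11, 0.12 and 0.47 on the others. Without the trabecular WT E2 arrays of BeadChips 1 and 4 the differences turned to 0.082 for Col2a1 and 0.19 for Col9a2. With all arrays kept, the cartilage genes other than collagens also lay below 0, with 0 of 8 above 0 and a median of -0.59. The WT E2 arrays of BeadChips 1 and 4 enter that value. Chad stood at 9.85 and 9.42 there, against 11.95 to 12.65 on the other WT E2 arrays, and Hapln1 at 7.15 and 5.46, against 6.60 to 7.71. The list's value without them is not given here. Muscle genes had 18 of 19 above 0 with a median of 0.53, and osteoblast genes 10 of 12 with a median of 0.44. None of these lists held a called gene in that setting, and their part in the collagen values was not tested.

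**Figure D4:**
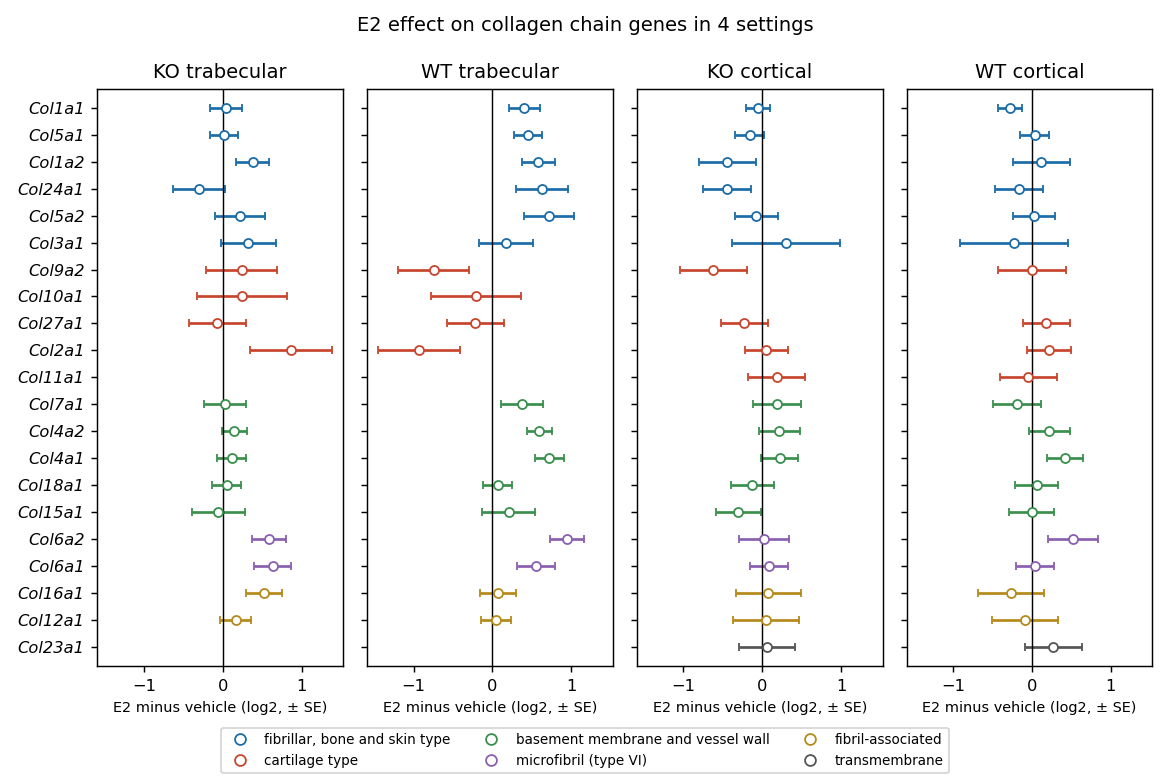
Log2 difference, E2 minus vehicle, of the collagen chain genes tested in KO trabecular, WT trabecular, KO cortical and WT cortical bone, with the standard error from limma (5 arrays per group), colored by class. All points are open because 0 collagen genes passed adjusted p under 0.05, and in WT trabecular bone 15 of 19 points lie above 0.

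Cortical bone showed medians close to 0. In KO cortical bone 0 of 20 collagen genes were called by limma, against 0% of 9093 genes, and 0 of the 20 had an unadjusted p under 0.05, against 3.56%. The median log2 difference was 0.03, and 11 of 20 were above 0, against 46%. The smallest p there belonged to Col24a1 at -0.45 (SE 0.30), Col9a2 at -0.62 (SE 0.43) and Col1a2 at -0.44 (SE 0.36), each with an adjusted p of 0.999. The Col1a2 value held -2.13 on BeadChip 2 and was -0.019 without that BeadChip, and Col24a1 was -0.087 without BeadChip 3, where it stood at -1.91. Col9a2 was at -0.23 with no background correction. In WT cortical bone 0 of 20 were called by limma, against 0.143%, and 0 of the 20 had an unadjusted p under 0.05, against 3.13%. The median was again 0.03, and 11 of 20 were above 0, against 49.5%. Col1a1 was at -0.28 (SE 0.15), Col4a1 at 0.42 (SE 0.23) and Col6a2 at 0.52 (SE 0.31), the last at 0.18 without BeadChip 3. Over the alternatives tried, Col6a2 lay between 0.18 and 0.81, Col4a1 between 0.34 and 0.62 and Col1a1 between -0.43 and -0.15. The cortical WT E2 array of BeadChip 4, low in Col3a1, enters this comparison. Col3a1 differed by -4.49 on that BeadChip and by -0.78 to 2.28 on the others.

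Whether the E2 effect differed by genotype was tested as KO minus WT. In trabecular bone 0 of 19 collagen genes were called by limma, against 0.0115% of all genes, and 2 had an unadjusted p under 0.05, against 3.65%. Col2a1 had a difference between the effects of 1.80 (SE 0.74), Col4a1 of -0.61 (SE 0.26) and Col24a1 of -0.93 (SE 0.47), each with an adjusted p of 0.997. Without the trabecular WT E2 arrays of BeadChips 1 and 4 the Col2a1 value was 0.78. With all arrays kept, cartilage genes other than collagens had 8 of 8 above 0 in this comparison, with a median of 1.28. Osteoblast genes had 2 of 12, with a median of -0.35, and the median over all genes was -0.006. The WT E2 arrays low in cartilage genes enter these values, and the list values without them are not given here. Nor is the share of all genes above 0. In cortical bone 0 of 20 were called, against 0%, and 0 had an unadjusted p under 0.05, against 2.35%. Col6a2 was at -0.50 (SE 0.45), Col1a2 at -0.56 (SE 0.51) and Col1a1 at 0.22 (SE 0.21). These standard errors are close in size to the values, so the cortical comparison does not show that the genotypes respond alike.

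Without E2, KO and WT mice differed in no collagen gene past the threshold. In vehicle-treated trabecular bone 0 of 19 were called by limma, against 0%, and 1 had an unadjusted p under 0.05, against 4.26%. That gene was Col5a1, at 0.40 (SE 0.18, adjusted p = 0.941), followed by Col6a2 and Col6a1, both at -0.41. In vehicle-treated cortical bone 0 of 20 were called, against 0%, and 1 had an unadjusted p under 0.05, against 2.83%. Col6a1 was at -0.54 (SE 0.24), lower in the KO array on 5 of 5 BeadChips, with an adjusted p of 1 by limma, followed by Col4a2 at -0.34 and Col4a1 at -0.31. Array quality weights gave -0.029 for Col4a2. Muscle genes lay above 0 in 18 of 19 cases in trabecular bone (median 0.23) and in 20 of 20 in cortical bone (median 0.34).

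The E2 effect in WT mice was also compared between the bones, trabecular minus cortical. It was above 0 in 17 of 22 collagen genes, against 49.9% of all genes, and 0 were called by limma, against 0.0106%, with 1 at an unadjusted p under 0.05, against 2.71%. That was Col1a1, at 0.68 (SE 0.25, unadjusted p = 0.00891), positive on 5 of 5 BeadChips. Muscle genes had 19 of 20 above 0 in this comparison, with a median of 0.59, and osteoblast genes 11 of 13, with a median of 0.26; their part in the collagen values was not tested. This comparison uses the same arrays as the effects within each bone.

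Of the genes that act on collagen, 1 was called under E2 in WT trabecular bone, where 18 of 8690 genes tested (0.207%) were called. How many genes of these lists were tested in that setting is not given here, so the 1 call is not read as a trait of the lists. Loxl1, a lysyl oxidase, rose by 0.98 on the log2 scale (SE 0.16, adjusted p = 0.00487 by limma). The call was lost with median scaling (adjusted p = 1) and without BeadChip 2, 3, 4 or 5, where the adjusted p was 0.161, 0.105, 0.0531 and 0.0591 by limma in that order, while the log2 difference over all alternatives lay between 0.91 and 1.07. Lox stood at 1.11 (SE 0.24) with an adjusted p of 0.065, which lay between 0.000899 and 1 over the alternatives tried. The median log2 differences of the lists were 0.28 for synthesis and export, 0.23 for processing and crosslinking and for fibril-binding partners, 0.16 for receptors and 0.12 for breakdown.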

How the data were processed

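Labelled RNA of 40 samples was hybridised to Illumina BeadChips. The authors deposited an intensity and a detection p-value per probe without normalization, per the file headers, and a processed intensity table whose columns rank the probes as the arrays do and share nearly 1 median, 227.5 to 228.6; its steps are not given in the sources used here. GenomeStudio is named in the submitters' processing notes. By its values the table is linear and not centred. Background was corrected with limma 3.58.1 (nec on detection p, offset 16) in R 4.3.3, followed by quantile normalization of the 40 arrays and log2. Of 25697 probes, 20733 carried a current symbol and 3903 were renamed by synonym through RefSeq (GRCm38.p6). The brightest probe detected on at least 5 arrays stood for a gene. Models, with lmFit and eBayes, had 4 group means over 20 arrays within a bone and 8 group means over 40 arrays between bones. Call rule: Benjamini-Hochberg adjusted p under 0.05. The code was tested on simulated data.

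BeadChip pairs arrays across groups, since each replicate number is 1 BeadChip by its array names. Same-numbered arrays deviated together with a mean correlation of 0.0372 to 0.304 within trabecular and -0.0436 to 0.36 within cortical bone. The 40 arrays held 0 identical pairs. Alternatives were background correction, scaling, the authors' values, the detection filter, the replicate block, array weights, trend and robust fits, probe averaging, the threshold, the arrays fitted, and leaving out BeadChips. Genes named were the called ones by size (up to 8 each way), chains of types I, II, III, V, IX, X and XI, and the 3 smallest p elsewhere, with up to 4 called genes per pathway list. Members, lists and rules were chosen with earlier results of these data known. The number of arrays limits the precision. No probe's level is set against another's. Figures were drawn with matplotlib 3.10.9.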

Additional observations from a re-analysis of the deposited data

Results flagged for a closer look

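In 16 of 176 groups of 5 arrays (9.09%) 1 array lay far from the other 4, by Dixon's gap over range at the 95% level, which chance alone gives in about 1 of 20 groups. Of these, 6 were trabecular arrays of BeadChip 1, the arrays with fewest detected probes: Col15a1 in KO E2 at a log2 intensity of 5.63 and in KO vehicle at 5.52, Col4a1 in KO E2 at 9.5, Col7a1 in WT vehicle at 5.29, all low, and in KO vehicle Col27a1 at 7.92 and Col5a1 at 12.64, both high. Further trabecular arrays that lay apart were Col11a1 in KO E2 on BeadChip 3 at 5.88 (high, not detected), Col1a2 in WT vehicle on BeadChip 3 at 11.71, Col24a1 in KO vehicle on BeadChip 5 at 8.15 and Col2a1 in WT vehicle on BeadChip 4 at 11.22, the last 3 low. On cortical arrays, Col11a1 at 7.31 and Col6a1 at 13.14 were high in KO E2 on BeadChip 5. Low cortical values were Col1a1 in WT E2 on BeadChip 5 at 13.85, Col2a1 in KO E2 on BeadChip 1 at 10.44 and in WT vehicle on BeadChip 2 at 10.95, and Col6a2 in WT vehicle on BeadChip 3 at 9.13.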

How the results depend on the processing

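With only the 12 collagen genes detected on all arrays tested, the called counts between the bones were 11 averaged, 9 in WT E2 and 8 in KO E2 mice, since fewer genes were tested. The shares of all genes called under that filter are not given here. Leaving out each BeadChip gave 18 to 19 averaged. For E2 in WT trabecular bone the count of 0 became 1 with no background correction and with the authors' values (Col6a2), with array quality weights (Col4a1), without BeadChip 1, and without BeadChip 1 with the replicate block (Col4a1), and leaving out each BeadChip gave 0 to 1. The cause was not tested. The replicate block kept 19 collagen genes called between the bones and 0 under E2 and changed no other call. Median scaling moved the share of higher genes among all those called between the bones to 32.4%, against 55.7%, and the median of all genes to -0.02, against 0.07, while 5 of 22 collagen differences were above 0 under both. Over the 13 to 19 alternatives tried for each named collagen difference, the sign turned in 2, both for E2 in WT trabecular bone without the trabecular WT E2 arrays of BeadChips 1 and 4: Col2a1 was then at 0.082 and Col9a2 at 0.19, against -0.93 and -0.74. 5 arrays per group limit the E2 comparisons, and chains near the detection limit, such as Col5a3, Col11a1 and Col23a1, have little or no measured fold.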
